A study of Rattus norvegicus with 28 samples.

Results

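The 10 genes described here belong to the bone morphogenetic protein (BMP) and transforming growth factor beta (TGF-beta) pathway, measured in endothelium of rat hearts: Smad9, Smad6, Smad7, Id1, Id2, Id3, Bmpr2, Acvrl1, Eng and Bmp4. They are 10 of 14217 genes measured, and each was read from the probe set with its highest mean over the endothelial arrays. Smad9 was chosen by its measured signal, which was lower in allografts than in normal DA hearts. Every Smad9 value that rests on the normal DA or allograft arrays is thus given as a description with no test. The other 9 were taken as further genes of the pathway. Expression was measured on 24 Affymetrix arrays of endothelial preparations in 8 groups of 3, all from male rats, with no genetic change or drug named in the labels. Normal endothelium came from hearts that had not been transplanted, of the DA (Dark Agouti) and of the Lewis strain. Allografts were DA hearts placed in the neck of Lewis rats by a cuff method, and isografts were Lewis hearts placed in Lewis rats, each taken 2, 3 or 4 days later. Minced hearts were first cleared of leukocytes with a CD45 antibody, and endothelial cells were then collected with a CD31 antibody, both on magnetic beads. Leukocytes of allografts, labelled as Lewis, filled 4 more arrays, of which days 2 and 4 have 1 each and day 3 has 2. Arrays of 1 group are described as biological replicates by the submitters. The number of animals behind an array and their age remain not given in the sources used here, so p-values measure only the spread between these arrays.

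BMP and TGF-beta ligands bring together type I and type II serine/threonine kinase receptors at the cell surface. BMP receptors then phosphorylate Smad1, Smad5 and Smad9, whereas TGF-beta and activin receptors phosphorylate Smad2 and Smad3, and each set joins Smad4 and enters the nucleus. In endothelium the type I receptor Acvrl1 (ALK1), the type II receptor Bmpr2 and the co-receptor Eng (endoglin) carry BMP signals, and their inherited loss is known from hereditary haemorrhagic telangiectasia and pulmonary arterial hypertension. Id1, Id2 and Id3 are classic BMP target genes that encode inhibitors of basic helix-loop-helix transcription factors. Smad6 and Smad7 encode inhibitory Smads that dampen the pathway and are themselves induced by it.

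The sequence before the start site is shown for Smad9, on which the results turn, and for Id1 and Id3, because these 3 genes had every graft array below every normal array. The window searched was the 250 bases before the start site on the coding strand, from RefSeq on build GRCr8, and 8 of the 10 genes were matched in that table. Only bases before the annotated gene are printed, 250 for Smad9 (chr2:141106418-141106667, plus strand, gene at chr2:141106668-141156477), 211 for Id1 (chr3:161671314-161671524, plus strand, gene to 161672691) and 212 for Id3 (chr5:153656041-153656252, plus strand, gene to 153657860). Capitals mark GGCGCC, a GC-rich sequence bound by BMP Smads, and CAGAC, a Smad-binding core that appears as GTCTG where it lies on the other strand.
Smad9: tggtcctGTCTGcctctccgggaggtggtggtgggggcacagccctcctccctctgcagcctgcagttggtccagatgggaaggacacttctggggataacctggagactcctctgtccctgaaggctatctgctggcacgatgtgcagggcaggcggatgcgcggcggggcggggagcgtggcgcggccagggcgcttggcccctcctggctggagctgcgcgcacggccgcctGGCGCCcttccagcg
Id1: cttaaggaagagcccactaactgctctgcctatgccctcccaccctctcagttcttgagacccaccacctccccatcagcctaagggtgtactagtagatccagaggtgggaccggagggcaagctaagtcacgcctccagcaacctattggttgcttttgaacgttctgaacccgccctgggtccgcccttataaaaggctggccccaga
Id3: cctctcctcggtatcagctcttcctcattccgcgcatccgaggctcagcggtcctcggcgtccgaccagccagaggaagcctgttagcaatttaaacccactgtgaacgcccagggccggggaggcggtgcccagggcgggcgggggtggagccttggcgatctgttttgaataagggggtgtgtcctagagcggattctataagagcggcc

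The Smad9 window held GGCGCC 15 bases before the start site, and CAGAC on the reverse strand 243 bases before it. The Id1 and Id3 windows held neither, nor GTCTAGAC, a palindromic Smad-binding sequence, all searched on both strands. Of 27457 rat windows of the same length, 9.24% held GGCGCC, 42.8% CAGAC and 0.186% GTCTAGAC, and a GTCTAGAC window does not by itself hold CAGAC. Among the 8 genes with a window, 2 held GGCGCC (Smad9 and Smad7), 3 held CAGAC (Smad9, Eng and Bmp4) and 0 held GTCTAGAC. For some genes the start site used lies within the annotated gene. The Bmp4 and Bmpr2 windows thus lay inside the gene, as did the last part of those of Eng, Id1 and Id3. The Bmp4 matches and the Eng match 19 bases before its start site fell within the gene. A match describes the letters of the window only, and binding was not measured.

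All values below are log2 signals as the authors deposited them, so a difference of 1 is a 2-fold difference. Differences are given with their standard error (SE) from limma, which was fitted to all 24 endothelial arrays and 14217 genes, and a gene was called where its p, adjusted by the Benjamini-Hochberg method across all genes, was under 0.05. Over all genes the median difference was between -0.01 and 0.03 in each of the 10 comparisons. The mean of the defining endothelial markers was at a similar level in every group. Over 10 measured markers (Pecam1, Kdr, Tek, Emcn and others) it ran from 11.8 to 12.3 over all arrays, and its lowest array was a day 4 allograft. Of other endothelium, 2 of 4 lymphatic markers were called higher in each isograft group and in day 2 allografts and 1 of 4 on days 3 and 4 of allografts, and 1 of 2 endocardial markers lower in day 4 isografts and all allograft groups. In the leukocyte comparison given below, the lymphatic markers Prox1 and Flt4 were lower in leukocytes than in allograft endothelium. The lymphatic markers Lyve1 and Pdpn were not (10.73 against 10.33 and 10.49 against 9.73). No endothelial marker was called in isografts. In day 2 allografts Vwf was called higher (0.72) and Kdr lower (-1.04), and 3 of 10 markers were lower in day 4 allografts. Single markers moved in both directions under this mean. Kdr differed by -0.67, -0.50 and -0.51 in isografts on days 2, 3 and 4 and by -0.66 and -0.60 in allografts on days 3 and 4. Ramp2 differed by 0.67, 0.64 and 0.64 in isografts. Leukocyte markers moved with transplantation: the mean of 12 pan-leukocyte markers was 6.67 to 7.09 in normal hearts, 7.28 to 8.45 in isografts and 8.20 to 9.17 in allografts, with no overlap between normal and graft arrays. Of these 12 markers, 1, 4 and 6 were called higher in isografts on days 2, 3 and 4, and 10 were on each day in allografts. Macrophage markers were called higher as well, 3, 9 and 10 of 10 in isografts and 10, 9 and 10 in allografts, and of 7 T cell markers 1, 1 and 2 were in isografts and 3, 5 and 7 in allografts. Cardiomyocyte markers were lower for 3, 6 and 5 of 10 in isografts and 2, 0 and 3 in allografts (1 was higher on day 3), and for 6 of 10 in normal DA against normal Lewis. Mural cell markers were called only for 2 of 8 (higher) in day 4 allografts and 1 (lower) between the strains. The part of these cells in the results below was not tested beyond the fits given there. In bulk samples, fewer cells of a type and less RNA per cell cannot be told apart.

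Smad9, the third of the receptor-activated Smads that carry BMP signals, was lower in every graft array than in any normal array. Normal DA arrays read 6.76, 6.53 and 7.40 and normal Lewis arrays 6.57, 6.44 and 5.87 (replicates 1, 2 and 3). Isograft arrays read 5.52, 5.31 and 5.32 on day 2, 5.04, 5.13 and 5.24 on day 3, and 5.37, 5.39 and 5.20 on day 4. Allograft arrays read 5.16, 5.11 and 5.26 on day 2, 5.47, 5.31 and 5.05 on day 3, and 5.26, 5.56 and 4.82 on day 4. The 6 normal arrays thus spanned 5.87 to 7.40 and the 18 graft arrays 4.82 to 5.56. In order of their means the groups were normal DA (6.90 ± 0.45, SD, n = 3), normal Lewis (6.29 ± 0.37), isograft day 2 (5.38 ± 0.12), isograft day 4 (5.32 ± 0.10), allograft day 3 (5.28 ± 0.21), allograft day 4 (5.21 ± 0.37), allograft day 2 (5.18 ± 0.08) and isograft day 3 (5.14 ± 0.10). Arrays of the graft groups lay among each other, and normal DA and normal Lewis arrays overlapped too.

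**Figure D1:**
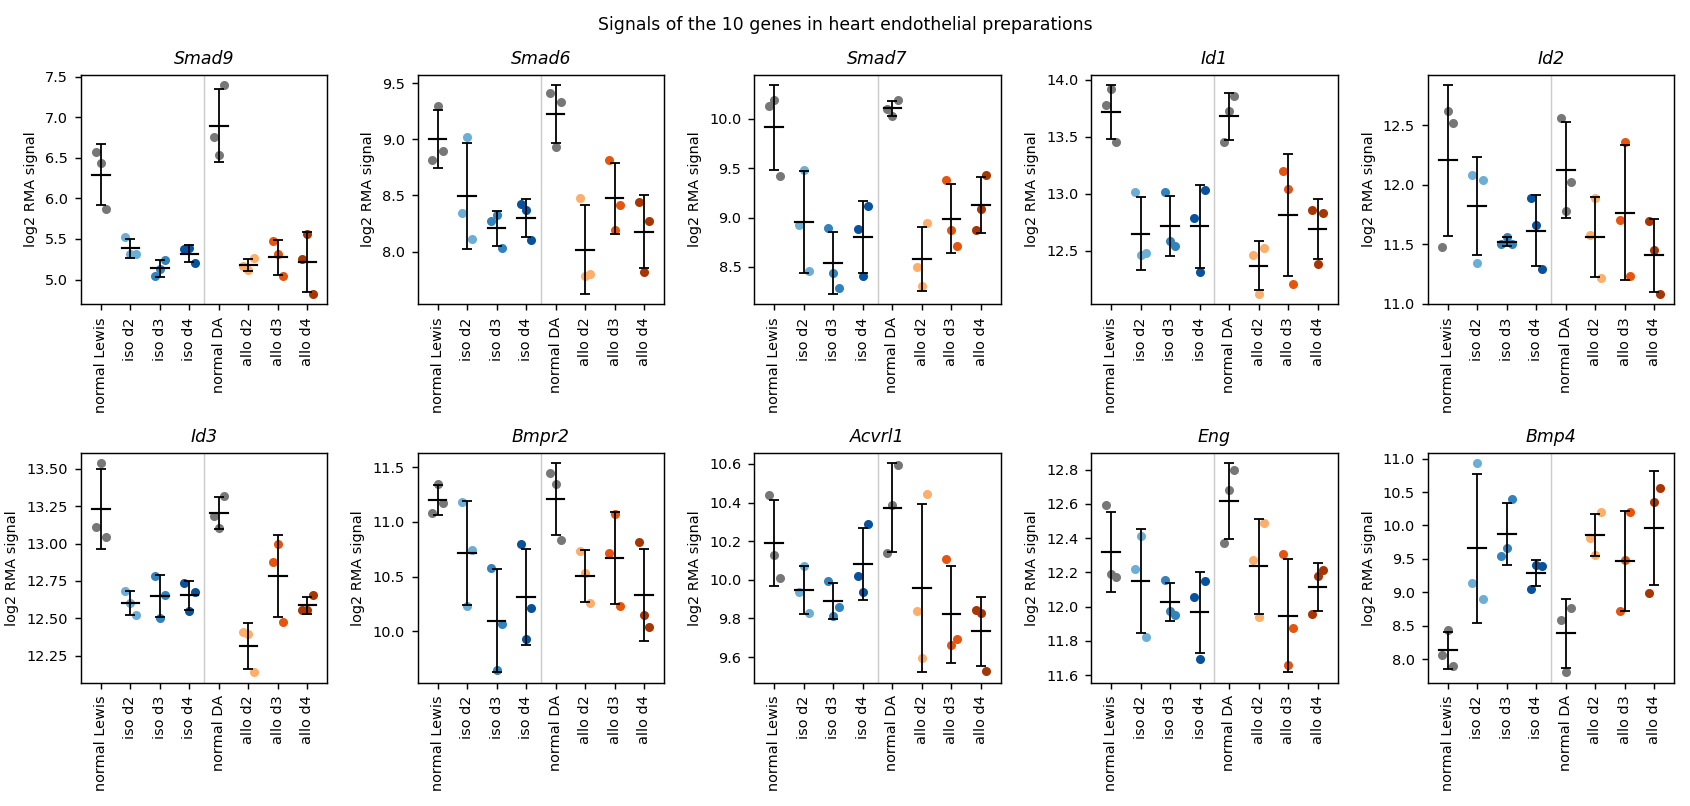
Log2 RMA signal of each of the 10 genes by array (points) in the 8 endothelial groups of 3 arrays, with the group mean and SD (bars); Lewis and isografts (iso) stand left of the grey line, DA and allografts (allo) right of it, d2 to d4 are days, and each gene has its own vertical scale. Smad9 graft arrays sit between 4.82 and 5.56, all below the normal arrays at 5.87 to 7.40, while Bmp4 is the gene whose graft arrays sit higher.

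In isografts, where Smad9 could be tested, it was lower than in normal Lewis by 1.88-fold on day 2 (log2 difference -0.91, SE 0.21, adjusted p = 0.0244), 2.23-fold on day 3 (-1.15, SE 0.21, adjusted p = 0.00296) and 1.96-fold on day 4 (-0.97, SE 0.21, adjusted p = 0.00946). On each day all 3 graft arrays lay below all 3 normal Lewis arrays, a separation not counted over all genes. The day 3 call held without any single array of both groups (adjusted p up to 0.0277). The day 2 call was lost without normal Lewis replicate 1 or 2 (adjusted p = 0.146 and 0.133) or isograft replicate 2 or 3 (0.135 and 0.0931), and when only both groups compared were fitted (0.0696). The day 4 call was lost without normal Lewis replicate 1 or 2 (0.06 and 0.0563) or isograft replicate 3 (0.0528). In allografts, by which it was chosen, the difference from normal DA was -1.72 on day 2, -1.62 on day 3 and -1.68 on day 4, that is 3.29-fold, 3.08-fold and 3.21-fold lower. Averaged over days, the allograft difference was -1.67 and the isograft difference -1.01, apart by -0.66, which was not tested. Normal DA stood 0.60 above normal Lewis, and these arrays enter both values.

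Both Smad9 results rest on 1 of its 2 probe sets. The other had a mean signal of 4.40, within the lowest 6.69% of the genes' signals, and differed from normal by -0.05, -0.09 and -0.11 in isografts on days 2, 3 and 4 and by 0.02, 0.01 and -0.16 in allografts (SE 0.13). No isograft value of this probe set was called (adjusted p = 0.984, 0.907 and 0.760 when every probe set was fitted by itself, a fit added after the data were seen). The probe set used is itself not bright: its mean over normal arrays stood at the 36.5th percentile of the genes' signals and over graft arrays at the 17.4th, where background signal can hide part of a change. With both probe sets averaged, the isograft day 2 value was -0.48 (adjusted p = 0.0714) and the allograft values were -0.85, -0.81 and -0.92.

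Among the target genes, Id1 and Id3 were lower in every one of the 18 graft arrays than in any of the 6 normal arrays. Over all genes, 0.647% had all graft arrays below all normal arrays, Smad9, Id1 and Id3 among them. Id1 arrays read 13.45, 13.73 and 13.86 in normal DA and 13.78, 13.92 and 13.46 in normal Lewis. In isografts they read 13.02, 12.46 and 12.48 on day 2, 13.02, 12.59 and 12.54 on day 3, and 12.79, 12.32 and 13.03 on day 4. In allografts they read 12.46, 12.12 and 12.52, then 13.20, 13.05 and 12.21, then 12.86, 12.39 and 12.83. Day 2 allografts were the lowest group, and day 3 allografts the most spread out. The difference from normal Lewis was -1.06, -1.001 and -1.003 in isografts (SE 0.24, adjusted p = 0.0244, 0.0289 and 0.0223), about 2-fold on each day. From normal DA it was -1.31 on day 2 (adjusted p = 0.00201), -0.86 on day 3 (0.0727, not called) and -0.99 on day 4 (0.0103).

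Id3, which is often expressed together with Id1, moved less but with a smaller spread. Normal arrays read 13.19, 13.10 and 13.32 in DA and 13.11, 13.54 and 13.05 in Lewis. Isografts read 12.68, 12.61 and 12.52 on day 2, 12.79, 12.50 and 12.65 on day 3, and 12.74, 12.55 and 12.67 on day 4. Allografts read 12.41, 12.40 and 12.14 on day 2, 12.88, 12.999 and 12.48 on day 3, and 12.55, 12.56 and 12.65 on day 4. As for Id1, the lowest group was the day 2 allografts, and the day 3 allografts came closest to normal. It was lower than normal Lewis by 1.55-fold, 1.499-fold and 1.49-fold (log2 -0.63, -0.58 and -0.58, SE 0.14, adjusted p = 0.0220, 0.0281 and 0.0228). Against normal DA it was lower by 1.85-fold on day 2 (-0.89, adjusted p = 0.000481) and 1.53-fold on day 4 (-0.61, adjusted p = 0.00656), and not called on day 3 (-0.42, adjusted p = 0.159).

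The allograft day 2 calls of Id1 and Id3 and the day 4 call of Id3 held without any single array. For Id1 in isografts, the day 2 call was lost without normal Lewis replicate 1 or 2 (adjusted p = 0.0961 and 0.135) or isograft replicate 2 or 3 (0.164 and 0.111). Its day 3 call was lost without normal Lewis replicate 1 or 2 (0.111 and 0.137) or isograft replicate 2 or 3 (0.138 and 0.14), and its day 4 call without normal Lewis replicate 1 or 2 (0.0769 and 0.122) or isograft replicate 1 or 2 (0.0616 and 0.124). Its allograft day 4 call was lost without normal DA replicate 3 (0.0524) or allograft replicate 2 (0.0595). Id3 in isografts was lost without normal Lewis replicate 2 on each day (0.162, 0.184 and 0.169), without isograft replicate 2 (0.102) or 3 (0.0954) on day 2, without isograft replicate 2 (0.171) or 3 (0.0936) on day 3, and without isograft replicate 1, 2 or 3 (0.0517, 0.0948 and 0.0743) on day 4. When only both groups compared were fitted, Id3 was lost on all 3 isograft days (0.119, 0.0924 and 0.0934).

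Id2, a relative that leukocytes also use, was not called in any comparison. Its arrays read 12.56, 11.78 and 12.03 in normal DA and 11.47, 12.62 and 12.52 in normal Lewis, so that 1 Lewis array lay below most graft arrays. Graft arrays ran from 11.08 to 12.36, and 6 of 18 lay below all normal arrays. The difference was -0.38, -0.68 and -0.59 in isografts and -0.56, -0.36 and -0.72 in allografts (SE 0.31, adjusted p = 0.155 to 0.859). A second Id2 probe set, with a mean signal of 8.39, was lower in allografts on day 2 (-0.95, SE 0.24, adjusted p = 0.0246) and day 4 (-0.85, adjusted p = 0.0297) when every probe set was fitted by itself, and was -0.57 to -0.63 in isografts with no call. With both probe sets averaged, Id2 was called lower on allograft days 2 and 4 (-0.76 and -0.78, adjusted p = 0.0295 and 0.0157).

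Both inhibitory Smads were lower in grafts. Smad7, which blocks TGF-beta and BMP receptors, read 10.10, 10.03 and 10.18 in normal DA and 10.13, 10.19 and 9.42 in normal Lewis. Isografts read 8.93, 9.48 and 8.45 on day 2, 8.89, 8.44 and 8.29 on day 3, and 8.89, 8.40 and 9.11 on day 4. Allografts read 8.50, 8.31 and 8.94 on day 2, 9.38, 8.88 and 8.71 on day 3, and 8.87, 9.08 and 9.43 on day 4. The third Lewis array stood apart from the other normal arrays, and 16 of 18 graft arrays lay below it. The difference from normal Lewis was -0.96 on day 2 (SE 0.27, adjusted p = 0.0846, not called), -1.37 on day 3 (adjusted p = 0.00573) and -1.11 on day 4 (adjusted p = 0.0219). From normal DA it was -1.52, -1.11 and -0.98 (adjusted p = 0.00129, 0.0277 and 0.0198), or 2.87-fold, 2.16-fold and 1.97-fold lower, which made Smad7 the only gene of the other 9 called on all 3 days in allografts.

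Smad6, which acts mainly on BMP signals, read 9.41, 8.93 and 9.34 in normal DA and 8.82, 9.30 and 8.90 in normal Lewis. Isografts read 8.34, 9.02 and 8.11 on day 2, 8.27, 8.32 and 8.03 on day 3, and 8.42, 8.37 and 8.10 on day 4. Allografts read 8.47, 7.78 and 7.80 on day 2, 8.82, 8.19 and 8.41 on day 3, and 8.44, 7.82 and 8.28 on day 4. Of 18 graft arrays 16 lay below all normal arrays, and isograft day 2 replicate 2 and allograft day 3 replicate 1 reached the normal range. It was 2.31-fold lower than in normal DA on day 2 (-1.21, SE 0.24, adjusted p = 0.00329) and 2.07-fold lower on day 4 (-1.05, adjusted p = 0.00628), and was not called on day 3 (-0.75, adjusted p = 0.123) or in isografts (-0.51, -0.80 and -0.71, adjusted p = 0.466, 0.0916 and 0.135).

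The Smad6 calls, the allograft day 2 call of Smad7 and the isograft day 3 call of Smad7 held without any single array. The isograft day 4 call of Smad7 was lost without normal Lewis replicate 1 or 2 (adjusted p = 0.0961 and 0.129) or isograft replicate 1 or 2 (0.0602 and 0.116). In allografts its day 3 call was lost without any normal DA array (0.0798, 0.0798 and 0.107 for replicates 1, 2 and 3) or allograft replicate 2 or 3 (0.117 and 0.146), and its day 4 call without normal DA replicate 1 or 3 (0.0524 and 0.0694) or allograft replicate 1 or 2 (0.053 and 0.0603). Smad7 had 3 probe sets, of which the second, at a mean signal of 6.30, was lower by 2.05 in day 2 allografts (adjusted p = 0.0153) and differed by -1.30 to -1.05 in the other graft groups with no call. Smad6 had 4, of which the second, at 8.23, was -0.81 and -0.79 in allografts on days 2 and 4 (adjusted p = 0.0642 and 0.0484), and no value of the third Smad7 or of the other Smad6 probe sets was called. With all probe sets averaged, Smad7 was lost on allograft day 3 (-0.80, adjusted p = 0.0778) and Smad6 was called on isograft day 3 (-0.57, adjusted p = 0.0339), as it was when only both groups compared were fitted (0.0311). Smad7 on isograft day 2 was called with each array's median removed (-0.99, adjusted p = 0.0345).

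Of the receptors, Bmpr2 and Acvrl1 were each called in 1 graft group and Eng in none. Bmpr2, the main type II BMP receptor, read 11.44, 11.35 and 10.83 in normal DA and 11.08, 11.34 and 11.17 in normal Lewis. Isografts read 11.18, 10.23 and 10.74 on day 2, 10.58, 9.64 and 10.07 on day 3, and 10.79, 9.93 and 10.22 on day 4. Allografts read 10.73, 10.53 and 10.26 on day 2, 10.71, 11.07 and 10.23 on day 3, and 10.82, 10.15 and 10.04 on day 4. Of 18 graft arrays 16 lay below all normal arrays, and isograft day 2 replicate 1 and allograft day 3 replicate 2 did not. It was called on isograft day 3 (-1.10, SE 0.29, adjusted p = 0.0453, 2.15-fold lower) and in no other group (isografts -0.48 and -0.89, adjusted p = 0.654 and 0.120; allografts -0.70, -0.54 and -0.87, adjusted p = 0.179, 0.569 and 0.056). That call was lost without normal Lewis replicate 1, 2 or 3 (0.11, 0.168 and 0.109) or isograft replicate 2 or 3 (0.307 and 0.15). Bmpr2 had a second probe set at a mean signal of 5.52, which differed by -0.023 on isograft day 3 (adjusted p = 0.986) and by -0.31 to -0.04 in the other graft groups with no call, and in that fit of every probe set the first one stood at an adjusted p of 0.0549. With both probe sets averaged, the isograft day 3 call was lost (-0.56, adjusted p = 0.0970) and Bmpr2 was called on allograft day 4 instead (-0.58, adjusted p = 0.0286). On allograft day 4 it was also called with the dimmest genes left out (adjusted p = 0.0482) and with each array's median removed (-0.96, adjusted p = 0.0457).

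Acvrl1 (ALK1), the endothelial type I receptor, read 10.14, 10.39 and 10.60 in normal DA and 10.44, 10.13 and 10.01 in normal Lewis. Isografts ran from 9.81 to 10.29 over the 9 arrays. Allografts read 9.84, 9.60 and 10.44 on day 2, 10.11, 9.66 and 9.69 on day 3, and 9.84, 9.83 and 9.53 on day 4. All day 4 allograft arrays lay below all normal DA arrays, a separation not counted over all genes. Isograft and normal Lewis arrays were mixed on days 2 and 4. It was 1.56-fold lower in day 4 allografts (-0.64, SE 0.19, adjusted p = 0.0288), and not called on day 2 (-0.42, adjusted p = 0.223), on day 3 (-0.55, adjusted p = 0.160) or in isografts (-0.25, -0.30 and -0.11). The call was lost without normal DA replicate 2 or 3 (0.0857 and 0.136) or allograft replicate 2 or 3 (0.0516 and 0.149), and when only both groups compared were fitted (0.0858). In this group 3 of 10 endothelial markers were also called lower (Emcn -0.42, Kdr -0.60 and Tek -0.55), where 4.26% of all genes were. With the mean of the endothelial markers in the model, a fit added after the data were seen, Acvrl1 was at -0.22 (adjusted p = 0.505). The part of endothelial RNA content in the Acvrl1 value was not tested otherwise.

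Eng, the co-receptor that binds BMP ligands together with Acvrl1, was called in no group in the fit used throughout. It read 12.37, 12.68 and 12.80 in normal DA, 12.59, 12.19 and 12.17 in normal Lewis, 11.70 to 12.41 in isografts and 11.66 to 12.49 in allografts, and 11 of 18 graft arrays lay below all normal arrays. The difference was -0.17, -0.29 and -0.35 in isografts and -0.38, -0.67 and -0.50 in allografts (SE 0.19, adjusted p = 0.0777 to 0.890). It was called lower in allografts on days 3 and 4 with each array's median removed (-0.68 and -0.58, adjusted p = 0.0231 and 0.0203) and with the fibroblast marker mean in the model (-0.76 and -0.75, adjusted p = 0.0237 and 0.0394).

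Bmp4, the only ligand among the 10 genes, moved the other way. It read 8.59, 7.81 and 8.77 in normal DA and 8.06, 8.44 and 7.90 in normal Lewis. Isografts read 9.14, 10.93 and 8.90 on day 2, 9.54, 9.67 and 10.40 on day 3, and 9.06, 9.41 and 9.39 on day 4. Allografts read 9.81, 9.57 and 10.19 on day 2, 8.72, 9.49 and 10.20 on day 3, and 8.99, 10.35 and 10.55 on day 4. Of 18 graft arrays 17 lay above all normal arrays, and the exception was a day 3 allograft. Its spread was the widest of the 10 genes, up to an SD of 1.11 on isograft day 2. It was called on allograft day 4 (2.98-fold higher, log2 1.58, SE 0.47, adjusted p = 0.0319) and missed the threshold elsewhere (1.52, 1.74 and 1.15 in isografts, adjusted p = 0.138, 0.0521 and 0.249; 1.47 and 1.08 in allografts on days 2 and 3, adjusted p = 0.0691 and 0.366). The call was lost without normal DA replicate 1 or 2 (0.0567 and 0.159) or allograft replicate 2 or 3 (0.125 and 0.175), and when only both groups compared were fitted (0.119). That last fit instead called Bmp4 on isograft days 3 and 4 (0.00708 and 0.00646) and allograft day 2 (0.0275), and isograft day 3 was also called with the dimmest genes left out (0.0442) and with array medians removed (0.0417).

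Fibroblast markers rose in some of the same preparations. Of 8 fibroblast markers (Col1a1, Dcn, Lum and others), 4 were called higher in day 4 isografts, 4 in day 4 allografts and 1 in day 2 allografts. Their mean was 6.88 to 8.05 over the normal arrays, 7.53 to 9.26, 7.59 to 9.42 and 9.40 to 10.3 in isografts on days 2, 3 and 4, and 7.93 to 11.4, 7.72 to 9.92 and 8.16 to 11.7 in allografts. Across the 24 arrays Bmp4 correlated with the fibroblast mean at r = 0.52 and with the pan-leukocyte mean at r = 0.75, and at 0.28 and 0.57 after group means were removed. For the macrophage mean these 2 values were 0.72 and 0.50, for T cells 0.70 and 0.68, and for lymphatic endothelium 0.64 and 0.07. Over the 24 arrays the mural mean stood at 0.05, and the endothelial (-0.41), cardiomyocyte (-0.56) and endocardial (-0.57) means were below 0. These arrays share 1 normalization and the contrast of graft and normal hearts. Bmp4 on allograft day 4 was at 1.21 with the fibroblast mean in the model (adjusted p = 0.272) and at -0.81 with the pan-leukocyte mean (adjusted p = 0.998), and the part of either cell type in the Bmp4 result was not tested otherwise. Leukocytes themselves carried less Bmp4 than the allograft endothelium, as given below.

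**Figure D2:**
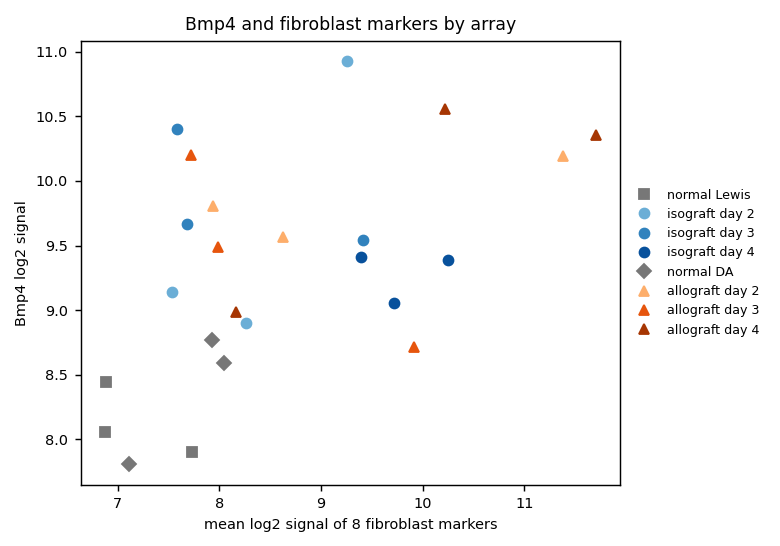
Bmp4 log2 signal (vertical) against the mean log2 signal of 8 fibroblast markers (horizontal) on the 24 endothelial arrays, 1 point each, with groups by colour and shape. Normal arrays lie low on both axes, between 6.88 and 8.05 for the markers, and graft arrays spread from 7.53 to 11.7 for the markers and from 8.72 to 10.93 for Bmp4.

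Counted over the list, the isografts had 3, 5 and 4 of the 10 genes called on days 2, 3 and 4, all lower. Of all genes, 0.422%, 0.732% and 0.556% were called lower, 1.06%, 1.8% and 2.61% higher, and 1.48%, 2.53% and 3.17% either way. Id1, Id3 and Smad9 were called on all 3 days, Smad7 on days 3 and 4 and Bmpr2 on day 3. The median difference of the 10 genes was -0.50, -0.74 and -0.65. In allografts, 4, 1 and 6 of the 9 tested genes were called, beside 5.98%, 2.28% and 11.4% of all genes (2.45%, 0.724% and 4.26% lower, 3.53%, 1.55% and 7.19% higher). No reading is made of the isograft or the allograft shares. The genes were chosen around the allograft difference of Smad9 with earlier results of these data known, and the isograft counts include Smad9. The genes called in allografts were Smad6, Smad7, Id1 and Id3 on day 2, Smad7 on day 3, and Smad6, Smad7, Id1, Id3 and Acvrl1 (all lower) with Bmp4 (higher) on day 4. The median of the 9 genes was -0.70, -0.55 and -0.72. The 3 days share their normal arrays, so they are not 3 independent observations.

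**Figure D3:**
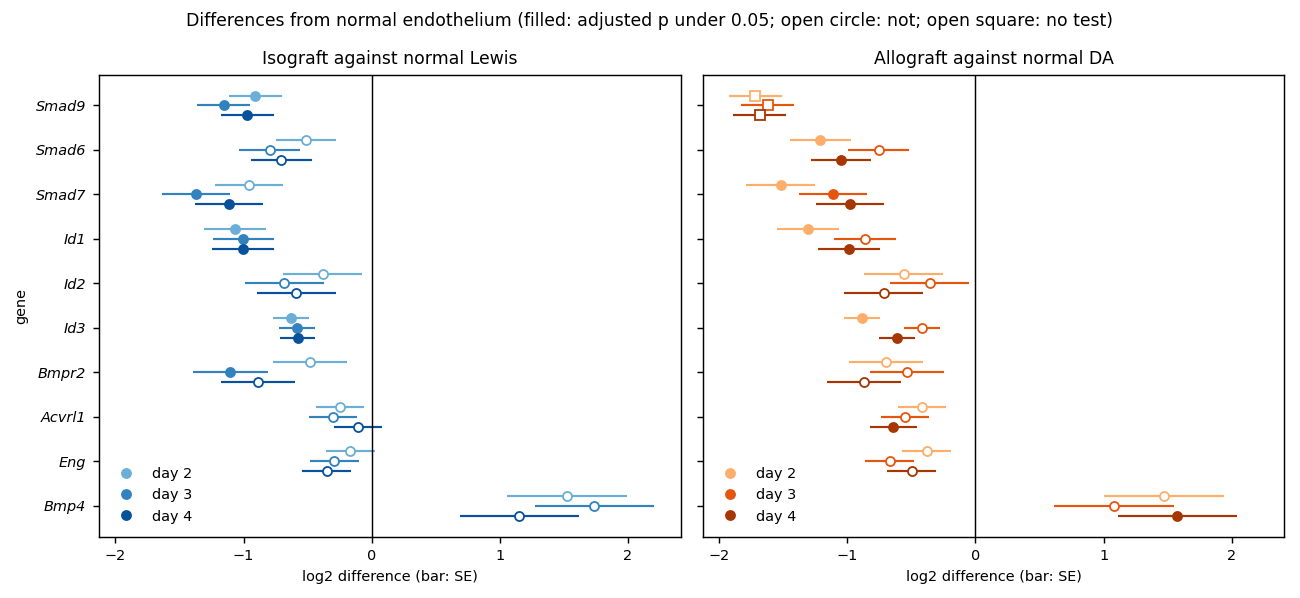
Log2 difference from normal endothelium (horizontal, with SE bars) for each of the 10 genes (vertical) in isografts against normal Lewis and allografts against normal DA, by day (shade); filled circles passed an adjusted p of 0.05 in limma, open circles did not and open squares were not tested. All genes but Bmp4 lie left of 0 in every comparison, and Smad9 lies furthest left in allografts, at -1.72, -1.62 and -1.68.

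When the array's pan-leukocyte marker mean was added to the model, none of the 10 genes was called in any graft group, and calls over all genes fell to 53, 39 and 31 in isografts and to 3, 0 and 0 in allografts. The estimates kept their sign for Smad9 (-0.84, -1.05 and -0.85 in isografts), Id1 (-0.97, -0.86 and -0.84) and Smad7 (-1.15, -1.66 and -1.45), with adjusted p of 0.0718 and above. Others did not keep it: Bmpr2 was above 0 in allografts (0.16, 0.30 and 0.17 on days 2, 3 and 4), and Bmp4 was below 0 on isograft day 4 (-0.19) and in allografts (-0.48, -0.83 and -0.81). Graft and normal arrays did not overlap in this mean, so graft state and leukocyte marker level cannot be told apart by that fit. With the endothelial marker mean in the model instead, an alternative added after the data were seen, isograft counts stayed within 1.5 times of those above, while 0 of 9 genes were called in allografts on day 3 and 1 on day 4. The median difference of the endothelial markers themselves was -0.07, -0.08 and -0.08 in isografts and -0.16, -0.13 and -0.36 in allografts.

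**Figure D4:**
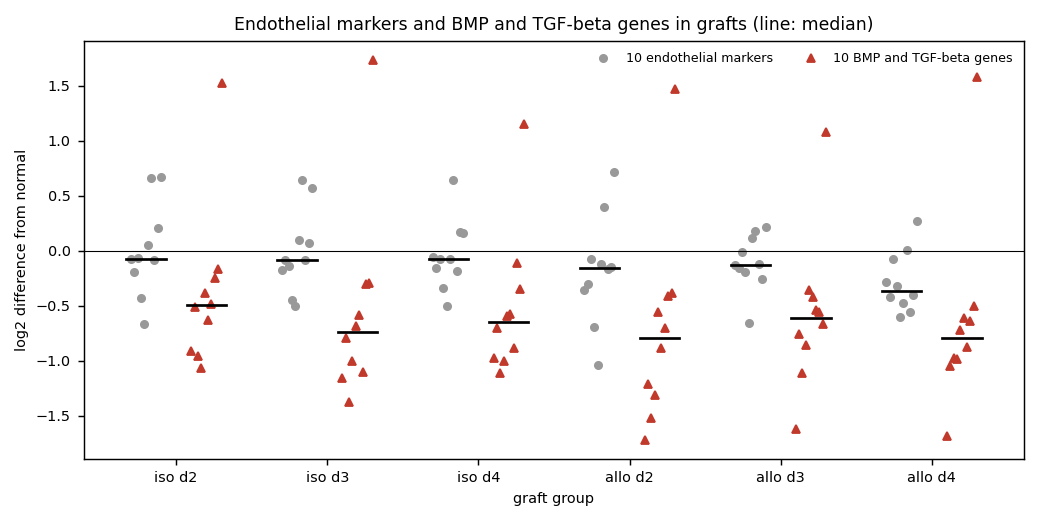
Log2 difference from normal endothelium (vertical) of 10 endothelial markers (grey circles) and of the 10 BMP and TGF-beta genes (red triangles) in each graft group (horizontal; iso, isograft; allo, allograft; d, day), with the median as a line. Marker medians lie between -0.36 and -0.07, medians of the 10 genes between -0.79 and -0.50, and the triangle above 1 in each group is Bmp4. The medians of the 10 genes include Smad9, which was chosen by its allograft values. Without Smad9 they are -0.70, -0.55 and -0.72 in allografts on days 2, 3 and 4.

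Allograft and isograft changes were then compared directly, each against its own strain and averaged over days. None of the 9 tested genes differed (adjusted p = 1.00 for each), and over all genes 1 was called (0.00703%, with 578 at an unadjusted p under 0.05). The difference of changes was -0.33 for Smad6 (SE 0.27), -0.06 for Smad7 (0.31), -0.03 for Id1 (0.28), -0.04 for Id3 (0.16), 0.12 for Bmpr2 (0.33), -0.32 for Acvrl1 (0.21), -0.25 for Eng (0.22), 0.01 for Id2 (0.36) and -0.10 for Bmp4 (0.54). Between the strains, none of the 9 genes was called in normal hearts (1.01% of all genes were, 0.485% higher and 0.528% lower in DA), with differences of DA minus Lewis from -0.08 for Id2 to 0.30 for Eng.

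Between day 2 and day 4 none of the 10 genes was called in isografts, and none of those other than Smad9 in allografts. Of all genes, 0.0352% were called in isografts and 0.38% in allografts (343 and 1197 genes at an unadjusted p under 0.05). Smad9 differed by -0.06 in isografts (SE 0.21, adjusted p = 0.999). In allografts, by whose arrays it was chosen, the difference was 0.03 and is given with no test. The mean of Smad9 over graft arrays stood at the 17.4th percentile of the genes' signals, where background signal can hide part of a change. The largest allograft difference was that of Smad7, 0.54 higher on day 4 (SE 0.27, adjusted p = 0.609). Id3 was 0.27 higher on day 4 than on day 2 in allografts (SE 0.14, adjusted p = 0.634).

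Other genes of the pathway were taken from a list of 57 names, of which 50 were measured. The rest were not analysed here. The 10 genes above are among these 50, so their calls, except those of Smad9, are counted again in what follows. In isografts they made up every lower call except that of Tmem100 on day 4. Smad9 aside, 0, 2 and 2 of 49 were called higher and 2, 4 and 4 lower in isografts on days 2, 3 and 4, and 2, 1 and 5 higher and 7, 2 and 13 lower in allografts. Beside these, 1.06%, 1.8% and 2.61% of all genes were called higher and 0.422%, 0.732% and 0.556% lower in isografts, and 3.53%, 1.55% and 7.19% higher and 2.45%, 0.724% and 4.26% lower in allografts. The list's median was -0.06, -0.08 and -0.10 in isografts and -0.15, -0.16 and -0.06 in allografts, where the median of all genes was -0.0068, 0.0005 and -0.011 and 0.03, 0.0005 and -0.0001. None was called in the other 4 comparisons.

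Of the 9 measured ligands, 3 besides Bmp4 were called. Inhba, which encodes the beta A subunit, was higher in isografts by 4.10-fold on day 3 (log2 2.04, adjusted p = 0.00971) and 3.69-fold on day 4 (1.88, adjusted p = 0.0143), and by 3.28-fold in day 4 allografts (1.71, adjusted p = 0.0110). Inhbb, the beta B subunit, was higher in allografts on day 2 (log2 2.32, SE 0.56, adjusted p = 0.0147) and by 7.91-fold on day 4 (2.98, adjusted p = 0.00130), the latter without any single array as well. Leukocytes carried 8.90-fold less Inhba and 12.6-fold less Inhbb than allograft endothelium. Bmp6 was lower in day 4 allografts (-0.996, adjusted p = 0.0357). Tgfb1, Tgfb2 and Tgfb3 were not called in any comparison. Calls of Inhba were lost in day 3 isografts without normal Lewis replicate 1 (0.0769) or isograft replicate 1 (0.0515), in day 4 isografts without normal Lewis replicate 1 or 3 (0.0823 and 0.0591) or isograft replicate 3 (0.116), and in day 4 allografts without normal DA replicate 2 (0.0617) or allograft replicate 2 (0.0595). The day 2 call of Inhbb was lost without normal DA replicate 1 or 3 (0.0594 and 0.076) or allograft replicate 1 (0.0506), and that of Bmp6 without normal DA replicate 1, 2 or 3 (0.0537, 0.116 and 0.107) or allograft replicate 3 (0.256).

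Of 9 measured receptors, 4 were called in day 4 allografts, where 4.26% of all genes were called lower, and all 4 were lower: Acvrl1, the activin and BMP type II receptors Acvr2a (-0.89, adjusted p = 0.00569) and Acvr2b (-0.75, adjusted p = 0.0292), and the TGF-beta type I receptor Tgfbr1 (-0.77, adjusted p = 0.0288), which was also lower on day 2 (-0.80, adjusted p = 0.0363). Among the Smads that carry the signal, Smad5 was lower in allografts on day 2 (-0.45, adjusted p = 0.0250) and day 4 (-0.60, adjusted p = 0.00205), while Smad1, Smad2, Smad3 and Smad4 were called in no comparison. The calls of Acvr2a and of Smad5 on day 4 held without any single array. Acvr2b was lost without normal DA replicate 1 or 3 (0.0899 and 0.126) or allograft replicate 2 or 3 (0.102 and 0.139). Tgfbr1 on day 2 was lost without each of the 3 normal DA arrays (0.109, 0.0875 and 0.0913) and of the 3 allograft arrays (0.0704, 0.0559 and 0.126), and on day 4 without each of the 3 normal DA arrays (0.0954, 0.0634 and 0.0695) and allograft replicate 2 or 3 (0.0901 and 0.057). Smad5 on day 2 was lost without normal DA replicate 2 or 3 (0.0617 and 0.134) or any allograft array (0.0569, 0.0705 and 0.051), with all its probe sets averaged (0.0566) and when only both groups compared were fitted (0.128).

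Of 7 inhibitors inside the cell, Smad6, Smad7 and Smurf2 were called. Smurf2, a ubiquitin ligase that marks Smads and receptors for degradation, was lower in allografts on days 2, 3 and 4 (-0.59, -0.56 and -0.52, adjusted p = 0.00472, 0.0134 and 0.00831). Of 8 secreted inhibitors, the activin antagonist Fst was higher in day 4 allografts (0.86, adjusted p = 0.0342) and the others were not called. Smurf2 was lost on day 3 without normal DA replicate 3 (0.075) or allograft replicate 2 or 3 (0.0525 and 0.0946) and on day 4 without allograft replicate 2 (0.0526), and Fst without any normal DA array (0.0726, 0.101 and 0.0904) or allograft replicate 2 or 3 (0.105 and 0.223).

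Among 11 measured targets, Tgfbi was called higher and Id1, Id3, Tmem100 and Hey1 lower. Tgfbi, which encodes a matrix protein induced by TGF-beta, was higher in isografts on days 3 and 4 (3.77-fold and 6.48-fold, adjusted p = 0.00244 and 4.39e-05) and in allografts on days 2, 3 and 4 (4.27-fold, 2.90-fold and 5.91-fold, adjusted p = 0.000558, 0.0134 and 3.89e-05). Leukocytes carried 13.9-fold more Tgfbi than allograft endothelium, and with the pan-leukocyte mean in the model it was at 0.84 and 1.43 in isografts on days 3 and 4 and at 0.25, -0.26 and 0.32 in allografts on days 2, 3 and 4, with no call. Tmem100, which encodes an endothelial membrane protein under the control of Acvrl1, was lower on day 4 in isografts (-0.92, adjusted p = 0.0253) and allografts (-0.997, adjusted p = 0.00615). Hey1, a target of Notch and of BMP signals, was lower in day 4 allografts (-1.34, adjusted p = 0.00846). The Tgfbi call on allograft day 3 was lost without normal DA replicate 1 or 2 (0.0534 and 0.08) or allograft replicate 2 (0.0791), that of Tmem100 on isograft day 4 without normal Lewis replicate 2 (0.181) or any isograft array (0.0597, 0.0804 and 0.0994), and that of Hey1 without allograft replicate 3 (0.0719).

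Leukocytes of allografts were compared by levels with the 9 allograft endothelial arrays, without a test, because they come from 1, 2 and 1 arrays a day and had been normalized apart. The median difference between both sets over all genes (0.327) was first taken off, and differences count here at 2-fold or more where no arrays overlap. By this rule 8 of the 10 genes differed, 7 lower (8.64% of all genes) and 1 higher (8.61% of all genes) in leukocytes. Smad9 was not among them: after that shift leukocytes read 5.14, 4.84, 5.09 and 4.49 (day 2, day 3 replicates 1 and 2, day 4) against 4.82 to 5.56 in allograft endothelium. Id1 read 9.37, 10.87, 11.34 and 9.16 against 12.12 to 13.20 (5.43-fold lower), and Id3 9.90, 10.54, 10.93 and 9.09 against 12.14 to 12.999 (5.45-fold lower). Id2 was the exception with 13.19, 13.11, 12.91 and 12.79 against 11.08 to 12.36, 2.68-fold higher.

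Of the inhibitory Smads, Smad6 was 4.37-fold lower in leukocytes, whereas Smad7 was 1.93-fold lower and did not reach the rule. The receptors were lower by 2.50-fold (Bmpr2), 5.47-fold (Acvrl1) and 5.51-fold (Eng), and Bmp4 by 9.60-fold, at 6.06, 6.23, 7.25 and 6.46 against 8.72 to 10.55. All 10 measured endothelial markers were lower in leukocytes too (median log2 difference -2.95), and 11 of 12 pan-leukocyte markers higher (median 3.38). The second day 3 leukocyte array was the highest of the 4 for Id1, Id3, Bmpr2, Acvrl1, Eng and Bmp4, and also for Pecam1 (10.06 against 8.36, 9.70 and 8.59). It was the highest as well for the measured cardiomyocyte markers except Nppa (Tnnt2 8.68 against 5.69, 7.61 and 5.84). The same held for the mural markers except Acta2 (Rgs5 10.44 against 7.80, 9.77 and 8.79). The share of endothelial or other heart RNA on this array was not tested.

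**Figure D5:**
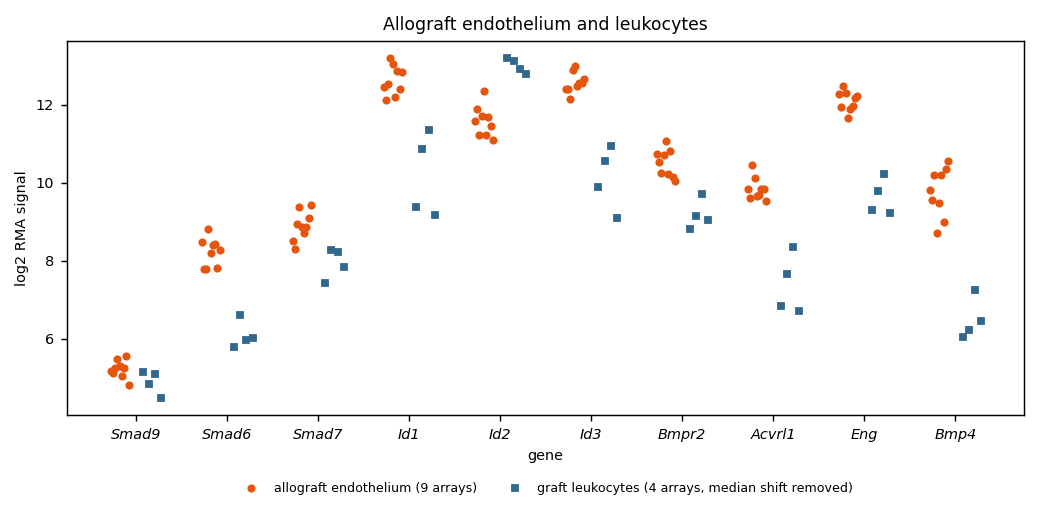
Log2 RMA signal (vertical) of the 10 genes (horizontal) on 9 allograft endothelial arrays of days 2 to 4 (orange circles) and 4 allograft leukocyte arrays after removal of the median shift of 0.327 (blue squares). Squares lie below the circles for 8 genes, above them for Id2 and among them for Smad9.

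Likeness to Smad9 was measured as Pearson's r over the 24 endothelial arrays for all other genes, as a description without a test. These arrays share the contrast of normal and graft hearts. The 6 highest were Jade1 (r = 0.865), Atp2c1 (0.864), Trib2 (0.861), Qpct (0.859), Bicd2 (0.855) and Dennd5a (0.853), and the 3 lowest Fgl2 (-0.924), Lyz2 (-0.902) and P2ry6 (-0.902). Lyz2, the macrophage lysozyme, is among the macrophage markers, whose mean correlated with Smad9 at r = -0.79. Of the other 9 genes, Smad7 (0.816, rank 20 of all genes), Id1 (0.807, rank 25) and Id3 (0.800, rank 32) came next to Smad9, followed by Smad6 (0.762), Acvrl1 (0.709), Eng (0.655), Bmpr2 (0.632) and Id2 (0.526), with Bmp4 at -0.666. After group means were removed, r with Smad9 was 0.49 for Acvrl1, 0.31 for Id3, 0.25 for Id1, 0.19 for Smad7 and 0.04 for Smad6, and with the macrophage mean -0.03.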

How the data were processed

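RNA of 24 endothelial and 4 leukocyte preparations was measured on Affymetrix arrays. Each probe set has a deposited log2 signal, made by the authors with RMA in the affy package per the submitters' processing notes; their versions are not stated there. By their medians, endothelial arrays (6.51 to 6.59) and leukocyte arrays (6.83 to 6.88) had been normalized apart. Of 31099 probe sets, 20826 had a single gene symbol, 436 several, 9780 were not listed in the annotation used and 57 were controls, and the brightest per gene over the endothelial arrays gave 14217 genes with no filter on dim ones. limma 3.58.1 in R 4.3.3 was fitted to the 8 group means (residual degrees of freedom 16), and each of 10 comparisons had its p-values adjusted across all genes by the Benjamini-Hochberg method. The code was tested on simulated data.

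The 10 genes, the pathway list and the marker lists were chosen with earlier results of these data known. Named were the 10 genes, every called gene of the pathway list (up to 4 per role and comparison), and the 6 genes most and the 3 least like Smad9. Single arrays were left out in turn, and other settings are given in the closing section. Array signals have no counting depth, and the number of arrays limits the precision.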

Additional observations from a re-analysis of the deposited data

How the results depend on the processing

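Counts of the 10 genes (9 in allografts, without Smad9) kept within 1.5 times under most settings, and the exceptions follow. With the mean of all probe sets of a gene, 0 were called on allograft day 3, and with each array's median removed 2 (Smad7 and Eng). Fitted on only the groups compared, 1 was called on isograft day 2. With the pan-leukocyte mean as a covariate, 0 were called in each of the 6 graft groups, and Bmp4 on allograft day 4 (-0.81), Tgfbi on allograft day 3 (-0.26) and Fst on allograft day 4 (-0.022) changed sign among called values. Among values not called, Bmp4 on isograft day 4 (-0.19) and allograft days 2 and 3 (-0.48 and -0.83) and Bmpr2 on allograft days 2, 3 and 4 (0.16, 0.30 and 0.17) changed sign too. With the endothelial marker mean, 0 were called on allograft day 3 and 1 on day 4, and with the fibroblast marker mean 3 on isograft day 3, 1 on isograft day 4 and 2 on allograft day 3 (both covariates were added after the data were seen). The cause of these shifts was not tested.

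Leaving out 1 array at a time, the counts ranged from 0 to 4, 2 to 5 and 0 to 4 in isografts on days 2, 3 and 4 and from 4 to 5, 0 to 3 and 2 to 6 in allografts, and stayed at 0 in the other 4 comparisons. For leukocytes it was 8 to 9. Deviations from the group means correlated above 0.1 in 42 of 84 pairs of arrays with the same replicate number (median 0.0991) and in 39 of 168 pairs with different numbers (median -0.0447). Deviations from the mean of a group are tied to each other, so these 2 sets of pairs are not independent. Arrays were not paired by number in the main fit, and whether arrays of the same number belong together was not tested further. With the replicate number as a block, 3, 6 and 5 genes were called in isografts and 5, 1 and 7 in allografts; the added calls were Bmp4 (isograft day 3, adjusted p = 0.0349, and allograft day 2, 0.0470) and Bmpr2 (isograft day 4, 0.0412, and allograft day 4, 0.0181).

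Over all genes, leaving out 1 array gave 92 to 176, 150 to 300 and 246 to 391 calls in isografts, 421 to 833, 168 to 322 and 862 to 2606 in allografts, 0 to 1 for the difference of changes, 75 to 132 between strains, and 1 to 17 and 15 to 506 between day 4 and day 2 of isografts and allografts. On only the groups compared, calls were 562 on isograft day 3, 510 and 514 on allograft days 2 and 4, and 1 and 0 between days. The endothelial covariate gave 627 on allograft day 4 and 32 between allograft days, and the fibroblast covariate 125 on isograft day 4, 477 and 653 on allograft days 2 and 4 and 1 between isograft days. The pan-leukocyte covariate left 2 between isograft days. The difference of changes had 0 calls with each of the 3 covariates and with array medians removed.

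Smad9, dim and read from 1 of 2 probe sets, is lost when the dimmest 25% of genes are left out. Signal over background was not used here.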

Other observations

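Among the 45 pairs of the 10 genes, some moved together within groups as well as between them. These pairs were picked after their values were seen. Over 24 arrays Acvrl1 and Eng correlated at r = 0.78 and at 0.78 after group means were removed, Smad7 and Eng at 0.75 and 0.79, Smad7 and Acvrl1 at 0.65 and 0.60, and Id1 and Id3 at 0.91 and 0.63. The arrays share 1 normalization and differ together in their content of endothelial RNA. After group means were removed, the endothelial marker mean correlated with Acvrl1 at 0.75, Eng at 0.63, Smad7 at 0.42, Id1 at 0.40 and Id3 at -0.05. The part of normalization or endothelial RNA in these pairs was not tested.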
